A study of Mus musculus with 72 samples.

Results

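A set of 10 genes that muscle uses to take up fatty acids and to burn them in place of glucose was followed through the RNA-Seq libraries of the series: *Pdk4*, *Ucp3*, *Angptl4*, *Cpt1b*, *Cpt2*, *Fabp3*, *Acsl1*, *Cd36*, *Lpl*, and *Ppargc1a*. They were chosen by name, with earlier results of these data known, and 10 of 10 were found among the 55401 genes of the tables. The shares over all genes printed beside their counts are therefore description and no independent test of the set. The study measured poly(A)-selected RNA in male mice that lack *Bmal1* (gene symbol *Arntl*), a core transcription factor of the circadian clock, in the whole body (*Bmal1*-KO, bred from heterozygous parents), in their WT littermates, and in KO+AAV mice. KO+AAV mice were *Bmal1*-KO mice injected as neonates with an AAV9 vector that carries HA-tagged *Bmal1* cDNA under the muscle promoter CK6, so these mice still lacked *Bmal1* outside of transduced muscle. Gastrocnemius was collected at ZT1, 1 hour into the light phase, with 6 WT, 6 KO, and 7 KO+AAV libraries at 10 weeks of age and 5 of each at 40 weeks. Heart, liver, white fat, and lung had 4 KO and 4 KO+AAV libraries each at 40 weeks, and no WT libraries were analysed here. A separate experiment at 10 weeks compared gastrocnemius of *Bmal1*-KO mice given an AAV9-CK6-GFP vector as neonates (KO-GFP, 3 libraries) with that of *Bmal1*-KO mice labelled KO-Control (3 libraries), whose injection, if any, is not given in the sources used here, so that both arms lacked *Bmal1*. The labels do not say that the libraries of a group are separate mice, and *P* values measure the spread between these libraries, which may be technical.

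Long-chain fatty acids reach a muscle fiber in steps. Lipoprotein lipase (*Lpl*) frees them from circulating triglycerides at the capillary wall, and ANGPTL4 inhibits that enzyme. CD36 carries them across the plasma membrane, FABP3 binds them in the cytosol, and ACSL1 joins them to coenzyme A. CPT1B and CPT2 then hand them over the outer and inner mitochondrial membranes for beta-oxidation. PDK4 inactivates pyruvate dehydrogenase and so limits the oxidation of glucose carbon in the mitochondrion. UCP3 is a carrier of the inner membrane of muscle mitochondria, and PGC-1α (*Ppargc1a*) is a coactivator of mitochondrial genes. Most of these genes are known targets of PPAR transcription factors, and in skeletal muscle they are known for their rise with fasting and in oxidative fibers.

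Reads counted on genes numbered 32563431 to 41733282 in the 10 gastrocnemius libraries sequenced at ICBR, 9325122 to 13610317 in the 24 sequenced at Novogene, 6754312 to 8515400 in the 6 of the GFP experiment (Novogene), and 36903079 to 50755829 in the 32 of the other tissues (ICBR). Both sites sequenced each of the WT, KO, and KO+AAV groups at 10 weeks, and the 40-week gastrocnemius libraries all came from Novogene. Normalized counts of *Arntl* were from 402 to 634 (median 527, n = 6) in WT, from 196 to 296 (median 236, n = 6) in KO, and from 169 to 281 (median 222, n = 7) in KO+AAV gastrocnemius at 10 weeks, so the KO+AAV counts of the gene were within or near the KO range and not at the WT level. At 40 weeks the counts were 608, 589, 573, 571, and 479.9 in WT, 381, 1039, 395, 312, and 308 in KO, and 298, 268, 317, 359, and 313 in KO+AAV muscle. The library labelled KO replicate 2 at 40 weeks was therefore above each WT library and goes against its label in this gene, whereas *Dbp*, a clock output gene, had its lowest count among those libraries there (85.3, 32.2, 75.1, 92.8, and 73.1 in KO and 560.4, 615, 703, 877, and 675 in WT, named after the values were seen). In KO+AAV muscle *Dbp* had 249 to 536 counts at 10 weeks, where KO muscle had 103 to 119. At 40 weeks KO+AAV muscle had 115 to 475, so it was above each KO library at both ages. The paper detected BMAL1 protein in KO+AAV gastrocnemius. Whole-gene counts cannot show which exons carried the reads, and the calls at 40 weeks are given with and without the library labelled KO replicate 2. Gastrocnemius, heart, liver, white fat, and lung libraries held the defining markers of their tissue, but KO heart replicate 2 also held 1368280.0 summed normalized counts of 5 hepatocyte markers, and KO white fat replicate 2 held 1355450.0 of epididymis markers. Slow fiber markers varied more than 8-fold within each group of the main gastrocnemius experiment, as given beside the results below.

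The promoter windows of the members are shown first because the members share known regulators. Windows of 300 bases around the transcription start, 250 before and 50 after it on GRCm38.p6 (RefSeq), were matched for 7 members in 8 windows, *Acsl1* having 2. *Angptl4*, *Cpt1b*, and *Lpl* had no window. AGGTCA, the core motif of nuclear receptors such as PPARs, was searched on both strands and was found in 2 of the 8 windows, those of *Ucp3* and *Cd36*, against 16.3% of 32851 promoters in the table. CACGTG, the E-box that CLOCK and BMAL1 bind, was in 0 of 8 (7.15% of all promoters), and DR1, the direct repeat of that core motif with 1 base between that PPAR and RXR bind together, was in 0 of 8 (0.0396%). A match is a string of letters and no proof of a bound site, and its absence concerns these windows alone. The windows of 4 members, *Ucp3* and *Cd36* with a match and *Pdk4* and *Fabp3* without one, are shown so that both kinds can be compared, and are printed 5′ to 3′ on the strand of the gene, with AGGTCA or its reverse complement in capitals. They are at chr6:5496229-5496528 on the minus strand for *Pdk4*, chr7:100472741-100473040 on the plus strand for *Ucp3*, chr4:130308488-130308787 on the plus strand for *Fabp3*, and chr5:17835847-17836146 on the minus strand for *Cd36*.
Pdk4: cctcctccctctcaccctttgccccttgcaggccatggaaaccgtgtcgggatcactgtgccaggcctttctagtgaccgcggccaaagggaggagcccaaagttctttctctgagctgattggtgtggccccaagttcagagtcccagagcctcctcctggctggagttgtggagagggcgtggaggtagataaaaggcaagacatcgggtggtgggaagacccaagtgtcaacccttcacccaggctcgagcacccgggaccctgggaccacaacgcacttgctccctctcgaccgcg
Ucp3: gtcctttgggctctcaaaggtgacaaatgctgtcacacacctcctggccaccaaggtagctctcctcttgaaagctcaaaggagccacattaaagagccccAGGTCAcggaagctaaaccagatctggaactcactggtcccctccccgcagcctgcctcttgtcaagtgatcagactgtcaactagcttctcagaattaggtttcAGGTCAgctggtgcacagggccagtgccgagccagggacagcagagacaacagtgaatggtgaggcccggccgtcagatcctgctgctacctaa
Fabp3: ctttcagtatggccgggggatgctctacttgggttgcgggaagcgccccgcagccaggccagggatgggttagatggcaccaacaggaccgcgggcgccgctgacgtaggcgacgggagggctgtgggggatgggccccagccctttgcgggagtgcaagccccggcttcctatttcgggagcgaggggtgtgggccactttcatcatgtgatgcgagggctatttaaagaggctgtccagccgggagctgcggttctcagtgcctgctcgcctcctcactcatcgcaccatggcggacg
Cd36: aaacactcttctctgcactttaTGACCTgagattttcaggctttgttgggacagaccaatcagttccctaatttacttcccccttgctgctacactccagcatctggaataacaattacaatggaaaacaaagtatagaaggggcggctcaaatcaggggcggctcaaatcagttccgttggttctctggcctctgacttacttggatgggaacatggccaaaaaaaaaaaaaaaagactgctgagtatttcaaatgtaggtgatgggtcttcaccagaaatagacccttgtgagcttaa
The core motifs of *Ucp3* began at bases -149 and -44 from the start, and that of *Cd36* at base -228. The *Cd36* window lies inside the span of the gene in the annotation.

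Levels of different genes were compared per length, as RPKM, reads divided by exon length and by the size of the library. In WT gastrocnemius at 10 weeks *Fabp3* was the most abundant of the members at 330.2 ± 185 RPKM (SD, n = 6), followed by *Pdk4* at 102 ± 67.8 and *Cd36* at 60.6 ± 26.6. *Lpl*, *Ucp3*, *Acsl1*, and *Cpt2* lay between 23.5 and 51.0 RPKM, and *Ppargc1a* was at 5.67 ± 1.77. The members with the lowest levels were *Cpt1b* at 0.868 ± 0.314 and *Angptl4* at 0.668 ± 0.873 RPKM. Neighbors in this order differed by less than the larger of their SDs, except *Fabp3* and *Pdk4*, *Cpt2* and *Ppargc1a*, and *Ppargc1a* and *Cpt1b*. *Cpt1b* shares 81.4% of its exon bases with *Gm44502* on the same strand, a gene listed at 0 in every library, so its counts are uncertain. *Fabp3* and *Acsl1* overlap genes of the other strand over 9.84% and 9.91% of their exon bases, and the strand setting of the counting is not given in the sources used here.

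*Bmal1*-KO muscle had more RNA of *Fabp3*, *Acsl1*, and *Cpt2*, which bind, activate, and import fatty acids, at both ages. At 10 weeks 4 of the 10 members were higher in KO than in WT gastrocnemius at an adjusted *P* under 0.05 (limma), namely *Angptl4*, *Fabp3*, *Acsl1*, and *Cpt2*, and 0 were lower. Over all 16199 genes tested, 8.0% passed in this comparison and 3.74% passed as higher. Among the ICBR libraries alone, 3 a group, 3 of these 4 passed (limma), all but *Acsl1* (limma adjusted *P* = 0.0574). Among the Novogene libraries alone, 3 a group, 0 of the members passed (limma), with differences in the same direction for these 4 genes. The share of all genes that passed in these smaller fits is not given here, so their counts are not to be read against the 8.0%. At 40 weeks 5 members were higher, *Pdk4*, *Fabp3*, *Acsl1*, *Cd36*, and *Cpt2*, and *Ppargc1a* was lower, where 23.5% of all genes passed, 11.5% as higher and 12% as lower. The median log2 difference of the members was 0.56 at 10 weeks and 0.95 at 40 weeks, beside 0.0074 and -0.011 over all genes. In these bulk samples a different share of cells of a type and a different amount of RNA per cell cannot be told apart. The groups of 1 member at 10 weeks (*Cpt2*) and 5 at 40 weeks did not overlap, with KO the higher, which 2.61% and 6.67% of all genes also showed.

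**Figure D1:**
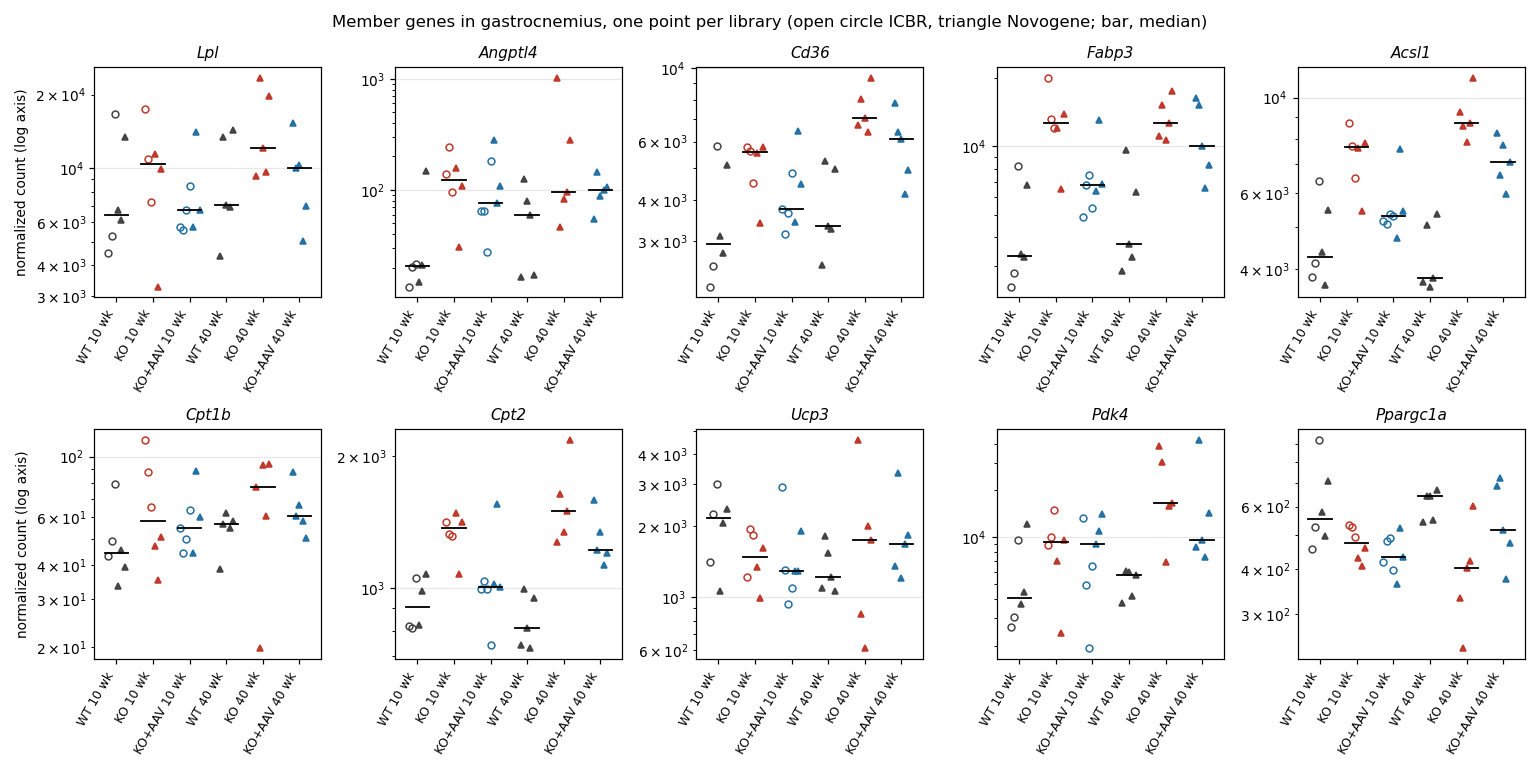
Normalized counts on a log axis of the 10 members in each of the 34 gastrocnemius libraries of the main experiment, by genotype and age, with a bar at the median of each group (open circles, ICBR; triangles, Novogene). The KO libraries lie above the WT libraries without overlap for *Cpt2* at both ages and for *Fabp3*, *Acsl1*, *Cd36*, and *Pdk4* at 40 weeks.

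At the capillary wall, *Lpl* ranged from 4509.9 to 16604 (median 6463, n = 6) in WT and from 3278 to 17528 (median 10425, n = 6) in KO muscle at 10 weeks. The groups overlapped, and the log2 difference was 0.21 (95% CI -0.54 to 0.95, limma adjusted *P* = 0.845). At 40 weeks the WT libraries had 4386, 13461, 7056, 6918, and 14312 normalized counts of *Lpl* and the KO libraries 9289.7, 23418, 12133, 9667, and 19663. The difference of 0.72 (95% CI -0.097 to 1.54, limma adjusted *P* = 0.201) did not pass the test. *Angptl4*, the inhibitor of that enzyme, was low in muscle and varied widely. It had from 13.5 to 148 (median 20.7, n = 6) counts in WT and from 30.7 to 242 (median 123, n = 6) in KO muscle at 10 weeks. All WT libraries except replicate 7 (148 counts) were below each KO library, and *Angptl4* was 4.12-fold higher in KO by the model, a log2 difference of 2.04 (SE 0.65, limma adjusted *P* = 0.0450). That call was lost when any of 10 of the 12 libraries was left out (adjusted *P* up to 0.129) and held without WT replicate 7 or KO replicate 6 (down to 0.00924). DESeq2 on the recovered reads also called it, but edgeR did not (adjusted *P* = 0.0684). Nor did limma without the site term (0.0596), without the filter on low values (0.0879), or among the Novogene libraries alone (1.13, 0.598). At 40 weeks KO muscle had 1019, 46.6, 82.8, 96.4, and 283 counts and WT muscle 16.3, 127, 79.6, 59.4, and 17.2. KO replicate 1, at 1019, stood above all other gastrocnemius libraries, and the difference of 1.83 (SE 0.71, limma adjusted *P* = 0.0577) did not pass. It was called without WT replicate 2 (2.2, adjusted *P* = 0.0307) or KO replicate 3 (2.07, 0.0463), and edgeR (adjusted *P* = 0.0193) and DESeq2 (0.00938) on the recovered reads called it.

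For uptake, *Cd36* had from 2185 to 5833 (median 2939, n = 6) counts in WT and from 3399 to 5771 (median 5576, n = 6) in KO muscle at 10 weeks. WT replicate 4 was above all KO libraries and WT replicate 7 among them, and the difference of 0.58 (SE 0.22, limma adjusted *P* = 0.0995) did not pass. Without WT replicate 4 it was 0.76 (adjusted *P* = 0.0165), without WT replicate 7 it was 0.70 (0.0469), and without KO replicate 6, the lowest KO library, it was 0.71 (0.0390). At 40 weeks the WT libraries had 2537, 5241, 3333, 3268, and 4947 counts of *Cd36* and the KO libraries 6720.0, 8073, 7081, 6432, and 9343. Each KO library was above each WT library, and *Cd36* was 2-fold higher, a log2 difference of 1.0 (SE 0.24, limma adjusted *P* = 0.00227).

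*Fabp3*, which carries fatty acids through the cytosol of muscle and heart cells, was called at both ages. At 10 weeks WT muscle had from 2426 to 8227 (median 3309, n = 6) counts and KO muscle from 6524 to 19998 (median 12646, n = 6). Only KO replicate 6 lay within the WT range, and *Fabp3* was 3.08-fold higher in KO, a log2 difference of 1.62 (SE 0.31, limma adjusted *P* = 0.000569). The difference was 1.95 among the ICBR libraries and 1.30 among the Novogene libraries. At 40 weeks the WT libraries had 2853, 9644, 3738, 3265, and 6339.8 counts and the KO libraries 11092, 15156, 10666, 12728, and 17583, with no overlap. The log2 difference was 1.51 (SE 0.34, limma adjusted *P* = 0.00146).

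*Acsl1*, which activates fatty acids to acyl-CoA, had from 3675 to 6407 (median 4259, n = 6) counts in WT and from 5445 to 8729 (median 7685, n = 6) in KO muscle at 10 weeks. Only WT replicates 4 and 7 were above KO replicate 6, the lowest KO library, and *Acsl1* was higher in KO by 0.67 (SE 0.14, limma adjusted *P* = 0.00132) on the log2 scale. By site the difference was 0.70 (ICBR) and 0.63 (Novogene). At 40 weeks WT muscle had 3733, 5048, 3637, 3817, and 5354 counts of *Acsl1* and KO muscle 9237, 8577, 7879.5, 8718, and 11114. All KO libraries were higher, by 2.12-fold, with a log2 difference of 1.09 (SE 0.15, limma adjusted *P* = 2.71e-06).

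At the entry to the mitochondrion, *Cpt2* had from 812 to 1076 (median 905, n = 6) counts in WT and from 1077 to 1481 (median 1373, n = 6) in KO muscle at 10 weeks. The highest WT library and the lowest KO library differed by less than 1 count, and the log2 difference was 0.53 (SE 0.13, limma adjusted *P* = 0.00809). Within sites it was 0.61 (ICBR) and 0.46 (Novogene). WT libraries had 743, 996, 812, 729, and 950.3 counts at 40 weeks and KO libraries 1278, 1642, 1341, 1501, and 2180.3. *Cpt2* was then 1.86-fold higher in KO, a log2 difference of 0.89 (SE 0.14, limma adjusted *P* = 2.70e-05). *Cpt1b*, with the overlap given above and at most 115 counts in a library of gastrocnemius, had differences of 0.40 (95% CI -0.16 to 0.97, limma adjusted *P* = 0.482) at 10 weeks and 0.19 (95% CI -0.44 to 0.81, limma adjusted *P* = 0.710) at 40 weeks. Neither passed the test.

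For *Ucp3*, the mitochondrial carrier, no difference between KO and WT passed the test. It had from 1068 to 2994 (median 2153, n = 6) counts in WT and from 994 to 1945 (median 1478, n = 6) in KO muscle at 10 weeks, and the difference of -0.40 (95% CI -1.09 to 0.29, limma adjusted *P* = 0.595) did not pass. At 40 weeks the KO libraries had 4606, 849, 610.0, 1997, and 1751 counts and the WT libraries 1100.1, 1816, 1539.8, 1218, and 1061. KO replicates 2 and 3 lay below all WT libraries and the other 3 KO replicates above or within them, with a difference of 0.21 (95% CI -0.54 to 0.97, limma adjusted *P* = 0.726). *Pdk4*, the kinase that turns off pyruvate dehydrogenase, had from 2652 to 12178 (median 4072, n = 6) counts in WT and from 2419 to 14995 (median 9284, n = 6) in KO muscle at 10 weeks. The difference of 0.64 (SE 0.49, limma adjusted *P* = 0.541) did not pass, and was 1.37 at ICBR and -0.098 at Novogene, of opposite sign. At 40 weeks WT muscle had 3756, 6030.2, 5927, 4177, and 5682 counts of *Pdk4* and KO muscle 38858, 30225, 6952, 15968, and 16575. Each KO library was above each WT library, although KO replicate 3 (6952) came close to the highest WT library, and *Pdk4* was 3.68-fold higher, a log2 difference of 1.88 (SE 0.53, limma adjusted *P* = 0.00964).

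*Ppargc1a*, the coactivator, went the other way. At 10 weeks it had from 457 to 924 (median 554, n = 6) counts in WT and from 409 to 532 (median 476, n = 6) in KO muscle, a difference of -0.34 (SE 0.17, limma adjusted *P* = 0.277) that did not pass. WT libraries at 40 weeks had 543, 644, 644, 550.4, and 667 counts and KO libraries 333, 240.0, 403, 423, and 603. The KO libraries were below the WT range except replicate 5 (603), which was inside it, and *Ppargc1a* was lower in KO, with a log2 difference of -0.67 (SE 0.19, limma adjusted *P* = 0.00940). The library labelled KO replicate 2 had the lowest count. Without it the difference was -0.50 (adjusted *P* = 0.0474), and the other 5 calls at 40 weeks also held, with *Pdk4* at 1.70 (adjusted *P* = 0.0302), *Fabp3* at 1.46 (adjusted *P* = 0.00428), *Cd36* at 0.97 (adjusted *P* = 0.00595), *Cpt2* at 0.87 (adjusted *P* = 0.000106), and *Acsl1* at 1.11 (adjusted *P* = 7.12e-06). *Angptl4* was called as well without that library, at 2.28 (adjusted *P* = 0.0238).

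Because oxidative fibers are known to be rich in most of these genes, slow fiber markers (*Myh7*, *Tnni1*, *Tnnt1*, *Tnnc1*, *Myl2*, *Myl3*, and *Atp2a2*, 7 of 7 detected) were measured beside them. Their summed normalized counts were 2438 to 20251 in WT, 1854 to 65052 in KO, and 3212 to 40547 in KO+AAV muscle at 10 weeks. At 40 weeks they were 1539 to 26991, 9203 to 157754, and 3736 to 34242. None of the 7 passed the test in KO versus WT at either age, with 6 of 7 higher at 10 weeks (median log2 difference 1.57) and 7 of 7 at 40 weeks (2.50). The differences of the members were then computed without the 4 libraries of highest sum, KO replicate 1 and KO+AAV replicate 6 at 10 weeks and KO replicate 3 and the library labelled KO replicate 2 at 40 weeks, an alternative chosen after seeing the data. The KO library of median sum at 40 weeks (32819) was kept, above the highest WT sum of 26991. This step therefore did not make the groups alike in slow fiber markers, and the part of slow fibers was not tested. *Fabp3* was 1.48 (adjusted *P* = 0.00209) at 10 weeks and 1.55 (adjusted *P* = 0.00529) at 40 weeks, *Acsl1* 0.62 (adjusted *P* = 0.00252) and 1.18 (adjusted *P* = 5.57e-06), and *Cpt2* 0.51 (adjusted *P* = 0.00908) and 0.94 (adjusted *P* = 6.79e-05). *Cd36* at 40 weeks was 0.99 (adjusted *P* = 0.0134) and *Pdk4* 2.12 (adjusted *P* = 0.0175). The calls lost were *Angptl4* at 10 weeks at 1.92 (adjusted *P* = 0.0674) and *Ppargc1a* at 40 weeks at -0.47 (adjusted *P* = 0.116), and *Angptl4* at 40 weeks was gained at 2.74 (adjusted *P* = 0.0174). *Lpl*, *Cd36*, and *Angptl4* are also genes of fat or capillary cells. In KO versus WT at 40 weeks adipocyte markers had 2 of 7 lower and 0 higher, with sums of 269.6 to 863 in KO and 359.5 to 2095 in WT muscle, and endothelial markers had 2 of 6 higher and 0 lower, with sums of 3825 to 5267 and 3174 to 4080.3. At 10 weeks limma called 0 of either list, and endothelial markers were higher in 6 of 6 (median 0.27). Their part in the differences of the members was not tested.

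**Figure D2:**
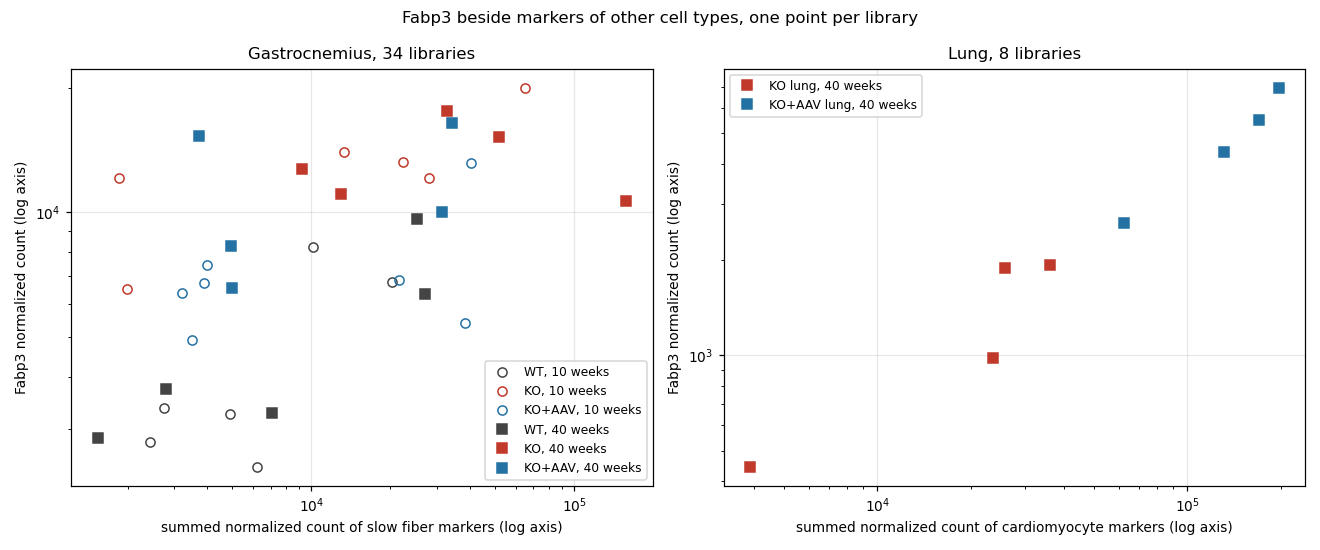
*Fabp3* normalized counts against the summed normalized counts of slow fiber markers in gastrocnemius (left, 34 libraries, open symbols 10 weeks and filled symbols 40 weeks) and of cardiomyocyte markers in lung (right, 8 libraries), both axes on log scales. In gastrocnemius the marker sums of KO and WT overlap only in part, at 9203 to 157754 in KO and 1539 to 26991 in WT at 40 weeks. In lung the 4 KO+AAV libraries are higher in both quantities.

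No member passed the test between KO+AAV and KO muscle at 10 weeks. In KO+AAV versus KO gastrocnemius 0 of 10 members passed in limma, edgeR, or DESeq2, where 0.204% of all genes passed in limma, and 3 members had an unadjusted *P* under 0.05. All 10 fitted log2 differences were negative, with a median of -0.25 against 0.0092 over all genes. The mean count of *Ucp3* was nevertheless higher in KO+AAV (1537) than in KO (1489) muscle. *Acsl1* had from 4725 to 7589.6 (median 5310.5, n = 7) counts in KO+AAV muscle, and its difference from KO was -0.40 (SE 0.13, limma adjusted *P* = 0.286). *Cpt2* had from 742 to 1559.6 (median 1008, n = 7) counts and a difference of -0.36 (SE 0.13, limma adjusted *P* = 0.350). *Fabp3* had from 4903 to 13110.3 (median 6762, n = 7) counts and a difference of -0.83 (SE 0.30, limma adjusted *P* = 0.378). These 3 were the members with *P* under 0.01, and 1.11% of all genes were lower at that unadjusted threshold. In all 3, KO+AAV replicate 6, the KO+AAV library with the highest sum of slow fiber markers, was the highest of its group (13110 counts for *Fabp3*). By site the differences were -1.28 at ICBR and -0.31 at Novogene for *Fabp3*, -0.53 and -0.16 for *Cpt2*, and -0.54 and -0.25 for *Acsl1*. *Pdk4* had from 1923 to 14098 (median 9018, n = 7) counts in KO+AAV muscle, with a difference of -0.066 (95% CI -1.02 to 0.89, limma adjusted *P* = 0.987) that joined -1.04 at ICBR and 1.03 at Novogene. Slow fiber markers were lower in 7 of 7 in this comparison (median -0.28) and macrophage markers (1.24) and adipocyte markers (0.91) higher in 6 of 6 and 7 of 7, with 0 called by limma. Without the 4 libraries rich in slow fiber markers the differences were -0.44 (adjusted *P* = 0.216) for *Acsl1*, -0.43 (adjusted *P* = 0.191) for *Cpt2*, and -0.84 (adjusted *P* = 0.338) for *Fabp3*.

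Against WT, 0 of 10 members passed in KO+AAV muscle at 10 weeks by limma, edgeR, or DESeq2, where 5.15% of all genes passed in limma, and 3 had an unadjusted *P* under 0.05. KO+AAV and KO share these WT controls, so the differences from WT are given side by side only. They were 0.79 in KO+AAV and 1.62 in KO for *Fabp3*, 0.26 and 0.67 for *Acsl1*, and 0.17 and 0.53 for *Cpt2*. *Angptl4* had from 27.7 to 282 (median 76.5, n = 7) counts in KO+AAV muscle and a difference from WT of 1.81 (SE 0.62, limma adjusted *P* = 0.0899). It was called without WT replicate 7 (2.28, adjusted *P* = 0.0244) and without KO+AAV replicate 3 (2.06, 0.04998), and *Fabp3* was called without WT replicate 4 (1.03, 0.0409). *Ppargc1a* had from 364 to 524 (median 434, n = 7) counts and a difference from WT of -0.44 (SE 0.17, limma adjusted *P* = 0.122).

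**Figure D3:**
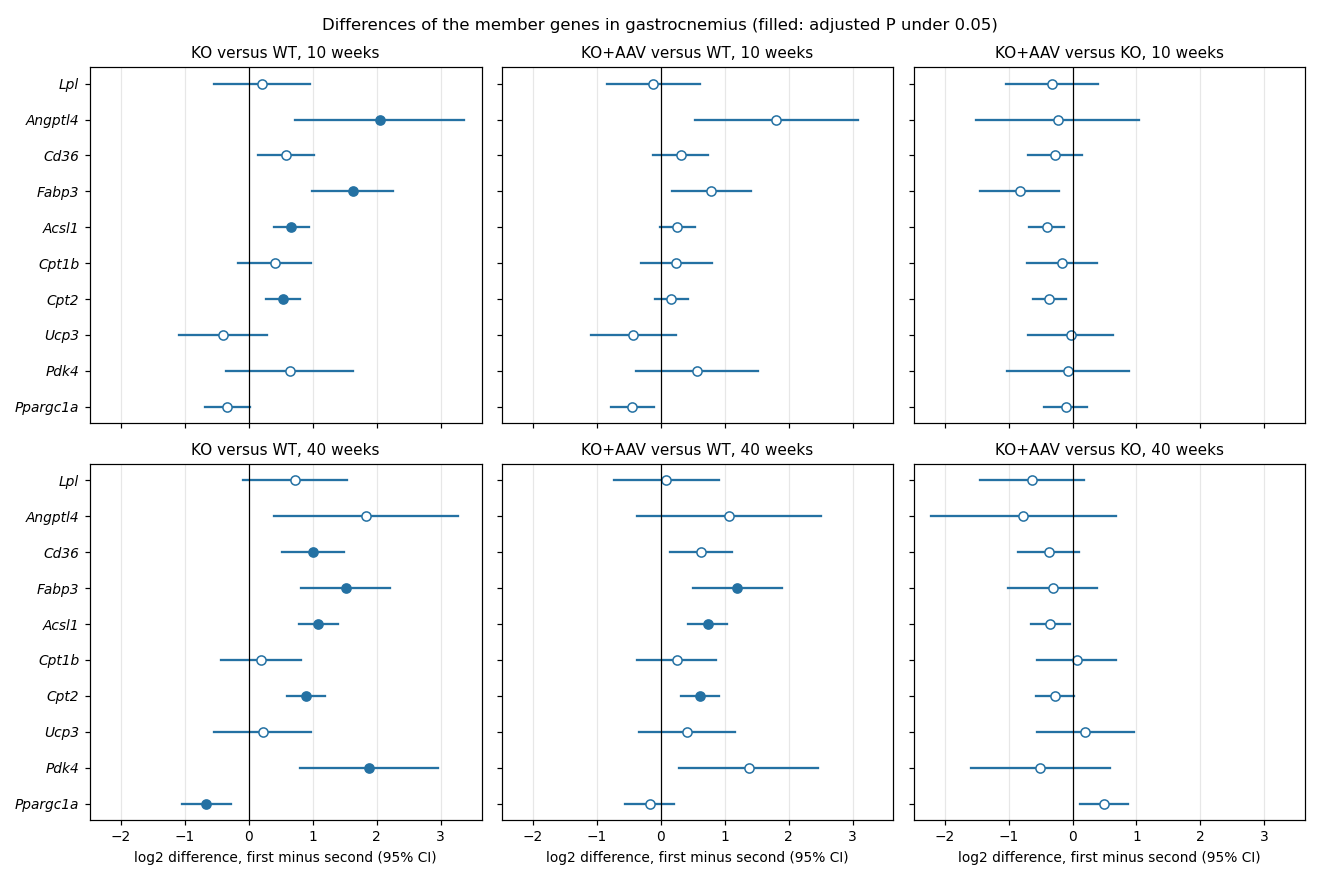
Log2 differences of the 10 members between pairs of gastrocnemius groups at 10 weeks (top) and 40 weeks (bottom), each with its 95% CI from limma. Filled points passed an adjusted *P* under 0.05: 4 in KO versus WT at 10 weeks, 6 at 40 weeks, 3 in KO+AAV versus WT at 40 weeks, and 0 in the other panels.

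At 40 weeks *Acsl1*, *Cpt2*, and *Fabp3* were higher in KO+AAV than in WT muscle, 3 of 10 members, where 12.5% of all genes passed and 6.41% passed as higher. *Acsl1* had 8256, 6619, 7756, 5982, and 7098 counts in the KO+AAV libraries, all above the WT libraries, with a difference from WT of 0.74 (SE 0.15, limma adjusted *P* = 0.00103). *Cpt2* had 1586, 1221, 1347, 1131, and 1201 counts, also without overlap, and a difference of 0.62 (SE 0.14, limma adjusted *P* = 0.00383). *Fabp3* had 16398, 15253, 10033, 6548, and 8283 counts, and KO+AAV replicates 4 and 5 lay within the WT range. Its difference of 1.2 (SE 0.34, limma adjusted *P* = 0.0175) was no longer called without WT replicate 1 (adjusted *P* = 0.0638), WT replicate 4 (0.0560), KO+AAV replicate 1 (0.0536), or KO+AAV replicate 2 (0.0521). *Pdk4* had 8656, 42283, 9651, 7480.0, and 14236 counts, each above the WT libraries as for *Acsl1* and *Cpt2*, which 993 of all 16199 genes also showed. For *Pdk4*, KO+AAV replicate 2 was the highest of all gastrocnemius libraries. Its difference of 1.38 (SE 0.53, limma adjusted *P* = 0.0877) did not pass in limma, while edgeR (0.0335) and DESeq2 (0.0190) called it. *Cd36* had 7823, 6414, 6095, 4167, and 4937 counts and a difference of 0.63 (SE 0.24, limma adjusted *P* = 0.0796), and was called without WT replicate 2 (0.75, 0.0456) or KO+AAV replicate 4 (0.74, 0.0457).

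Between KO+AAV and KO muscle at 40 weeks 0 of 10 members passed in limma, edgeR, or DESeq2, where 0.259% of all genes passed in limma, and 2 had an unadjusted *P* under 0.05. *Ppargc1a* had 685, 721, 517, 375, and 473 counts in KO+AAV muscle, 2 of them above the WT range, and its difference from KO was 0.49 (SE 0.19, limma adjusted *P* = 0.347). Without the library labelled KO replicate 2 it was 0.32 (adjusted *P* = 0.559). *Acsl1* had a difference of -0.35 (SE 0.15, limma adjusted *P* = 0.420). For *Pdk4* it was -0.50 (95% CI -1.59 to 0.58, limma adjusted *P* = 0.809), and for *Fabp3* -0.31 (95% CI -1.01 to 0.38, limma adjusted *P* = 0.818). Slow fiber markers were lower (median -2.05) and adipocyte markers higher (0.63) in 7 of 7 each in this comparison, with 0 called by limma.

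No member passed the test between ages. From 10 to 40 weeks 0 of 10 passed in limma, edgeR, or DESeq2 in WT (0.148% of all genes passed in limma), in KO (8.31%), or in KO+AAV muscle (8.53%), and the members with an unadjusted *P* under 0.05 numbered 0, 3, and 1. In KO these were *Cd36* at 0.52 (SE 0.24, limma adjusted *P* = 0.178), whose 40-week libraries were all above the 10-week libraries (as in 393 of all 16199 genes), *Acsl1* at 0.33 (SE 0.15, limma adjusted *P* = 0.184), and *Pdk4* at 1.15 (SE 0.54, limma adjusted *P* = 0.189). In KO+AAV it was *Acsl1* at 0.38 (SE 0.15, limma adjusted *P* = 0.113), which was called without KO+AAV replicate 6 at 10 weeks (0.51, adjusted *P* = 0.0316). The difference between ages in a genotype comparison was tested itself, and 0 of 10 members passed by any of the same tools for KO versus WT (0.370% of all genes), KO+AAV versus WT (0.642%), or KO+AAV versus KO (0.00617%), with 1 (*Acsl1*), 2 (*Acsl1* and *Cpt2*), and 1 (*Ppargc1a*) at an unadjusted *P* under 0.05. For *Acsl1* in KO versus WT the difference between ages was 0.42 (SE 0.20, limma adjusted *P* = 0.374). For *Pdk4*, called in KO at 40 weeks and not at 10 weeks, this difference was 1.25 (SE 0.72, limma adjusted *P* = 0.465), and for *Ppargc1a* in KO+AAV versus KO it was 0.60 (SE 0.25, limma adjusted *P* = 0.929). The 40-week libraries came from Novogene alone, so age and site were separated only by the 10-week libraries.

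Other genes of the same pathways, in lists that hold none of the members, were counted beside them, and their counts are to be read against the 8.0% and 23.5% of all genes called in KO versus WT at 10 and 40 weeks. These lists, too, were chosen with earlier results of these data known. Of 22 genes of mitochondrial fatty acid entry and beta-oxidation, 8 were higher and 0 lower in KO than in WT muscle at 10 weeks (median log2 difference 0.40), and 13 were higher and 1 lower at 40 weeks (0.60). *Hadhb*, a subunit of the trifunctional protein of beta-oxidation, was higher by 0.74 (SE 0.17, limma adjusted *P* = 0.00494) and 0.97 (SE 0.19, limma adjusted *P* = 0.000318) at these ages. *Eci1*, an enoyl-CoA isomerase of the same pathway, was higher by 0.64 (SE 0.15, limma adjusted *P* = 0.00472) and 0.94 (SE 0.16, limma adjusted *P* = 8.25e-05). In KO+AAV versus WT the list had 0 calls at 10 weeks and 5 at 40 weeks, all higher, and in KO+AAV versus KO it had 0 at both ages, with 21 of 22 differences negative at each. The 13 other genes of uptake and activation were split, 1 higher and 3 lower at 10 weeks and 3 higher and 4 lower at 40 weeks in KO versus WT. *Acsl3*, an acyl-CoA synthetase, was lower at -1.29 (SE 0.17, limma adjusted *P* = 3.91e-06) at 10 weeks, while *Slc27a1*, a fatty acid transport protein, was higher by 0.68 (SE 0.18, limma adjusted *P* = 0.0129). *Vldlr*, a lipoprotein receptor, was lower at 40 weeks, at -1.08 (SE 0.18, limma adjusted *P* = 4.47e-05), and *Gpihbp1*, which anchors lipoprotein lipase to the capillary wall, was higher by 0.64 (SE 0.17, limma adjusted *P* = 0.00569).

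Beside *Pdk4*, 11 genes of the pyruvate dehydrogenase switch had 1 higher and 1 lower in KO at 10 weeks and 4 higher and 2 lower at 40 weeks. *Mpc1*, a subunit of the mitochondrial pyruvate carrier, was lower at 10 weeks, at -0.71 (SE 0.09, limma adjusted *P* = 3.03e-06). The phosphatases that reverse the action of PDK4 differed in direction at 40 weeks, *Pdp2* higher by 1.26 (SE 0.22, limma adjusted *P* = 5.79e-05) and *Pdp1* lower at -1.04 (SE 0.22, limma adjusted *P* = 0.000641). Of 20 PPAR, ERR, and PGC-1 regulators, 0 were higher and 1 lower at 10 weeks, and 1 was higher and 3 lower at 40 weeks. *Rxra*, the partner of PPARs on DNA, was lower at both ages, at -0.48 (SE 0.11, limma adjusted *P* = 0.00601) and -0.79 (SE 0.13, limma adjusted *P* = 2.30e-05). Among 13 lipid droplet genes, with 1 higher and 1 lower at 10 weeks and 4 higher and 1 lower at 40 weeks, *Plin5*, a droplet protein of oxidative tissue, was higher by 1.91 (SE 0.29, limma adjusted *P* = 2.81e-05) and 2.28 (SE 0.32, limma adjusted *P* = 3.58e-06). Of 11 fasting-responsive muscle genes 1 was higher at 10 weeks and 3 at 40 weeks, none lower. These counts, and those of the regulators, were near the shares over all genes. By direction, 6 of 11 fasting-responsive genes had a positive difference at 10 weeks (median 0.11) and 11 of 11 at 40 weeks (median 1.37). In KO+AAV versus WT at 40 weeks 10 of 11 were positive (median 0.93). *Cdkn1a*, a cell cycle inhibitor, led the fasting-responsive genes with 2.78 (SE 0.36, limma adjusted *P* = 2.32e-06) and 4.81 (SE 0.40, limma adjusted *P* = 1.63e-10). In KO+AAV versus KO all 6 lists had 0 calls by limma at either age.

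Over the 34 gastrocnemius libraries, with the mean of each site taken out, each pair of *Fabp3*, *Acsl1*, *Cpt2*, and *Cd36* had a Pearson *r* between 0.82 and 0.92, and *Cd36* and *Lpl* had 0.85. With the mean of each group also taken out, the highest *r* of any pair of members was that of *Cd36* and *Lpl* (0.94), *Fabp3* and *Lpl* had 0.89, and *Cpt2* and *Cd36* had 0.67. *Ucp3* had its highest *r* with *Pdk4* (0.56 over all libraries and 0.73 within groups) and not more than 0.12 (0.17 within groups) with the first 4 genes. The *r* of *Ppargc1a* with those 4 genes was between -0.17 and 0.015 over all libraries and between 0.59 and 0.69 within groups. Outside the members, the gene most like *Acsl1* and like *Cpt2* was *Hadha* (*r* = 0.95 and 0.94), and *Hadha* was also nearest to *Fabp3* (0.94) and second to *Acadl* for *Cd36* (0.94 each). For *Pdk4* the nearest genes were *Slc25a34* (0.83) and *Tmem82* (0.81). These correlations describe libraries that share genotype groups and are not tests.

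In the GFP experiment, where neither arm received *Bmal1*, the arm with the GFP vector had higher counts of most members. In KO-GFP versus KO-Control gastrocnemius 6 of 10 members were higher at an adjusted *P* under 0.05 and 0 lower, where 3.09% of 14477 genes passed and 1.83% passed as higher. They were *Pdk4*, *Ucp3*, *Lpl*, *Cd36*, *Fabp3*, and *Acsl1*, and all 10 members had a positive difference (median 0.56, against 0.0042 over all genes). For these 6 and *Ppargc1a* the KO-GFP libraries were all above the KO-Control libraries, as 11.0% of all genes were with 3 libraries a group. *Pdk4* had 13411, 11625, and 12462 counts in KO-GFP and 3812, 4293, and 1737 in KO-Control muscle. It was 4.09-fold higher, the largest difference of the members, at 2.03 (SE 0.25, limma adjusted *P* = 0.00142). *Ucp3* had 1554, 1114, and 1145 counts against 829.8, 557, and 476, a difference of 1.06 (SE 0.18, limma adjusted *P* = 0.00844). Both calls held without any single library.

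*Lpl* had 6676, 4008, and 5450.4 counts in KO-GFP and 3114, 3236, and 2094 in KO-Control muscle, a difference of 0.93 (SE 0.18, limma adjusted *P* = 0.0194). *Cd36* had 3436, 2327, and 2878 against 2020.0, 1736, and 1354, a difference of 0.76 (SE 0.15, limma adjusted *P* = 0.0213). *Fabp3* had 8039, 4696, and 6302 against 3928, 4365, and 3587, a difference of 0.65 (SE 0.16, limma adjusted *P* = 0.0461). KO-GFP replicate 1 was the highest library for these 3 genes. *Acsl1* had 3557, 3694, and 3817 against 2906, 2866, and 2639.6, a difference of 0.40 (SE 0.08, limma adjusted *P* = 0.0203). Leaving out a single library ended the calls of *Lpl* (KO-GFP replicate 1, adjusted *P* = 0.0661, or 3, 0.117), *Acsl1* (KO-GFP replicate 2, 0.0510, or 3, 0.158, or KO-Control replicate 3, 0.0571), *Cd36* (KO-GFP replicate 1 or 3 or KO-Control replicate 2 or 3, 0.0501 to 0.118), and *Fabp3* (any library but KO-GFP replicate 2, 0.0630 to 0.186). *Ppargc1a* had 269, 209, and 265 counts against 208, 184, and 147, and its difference of 0.46 (SE 0.15, limma adjusted *P* = 0.114) did not pass. Nor did *Cpt2* at 0.17 (95% CI -0.066 to 0.41, limma adjusted *P* = 0.438), *Cpt1b* at 0.092 (95% CI -0.51 to 0.69, limma adjusted *P* = 0.897), or *Angptl4* at 0.20 (95% CI -0.64 to 1.04, limma adjusted *P* = 0.833).

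**Figure D4:**
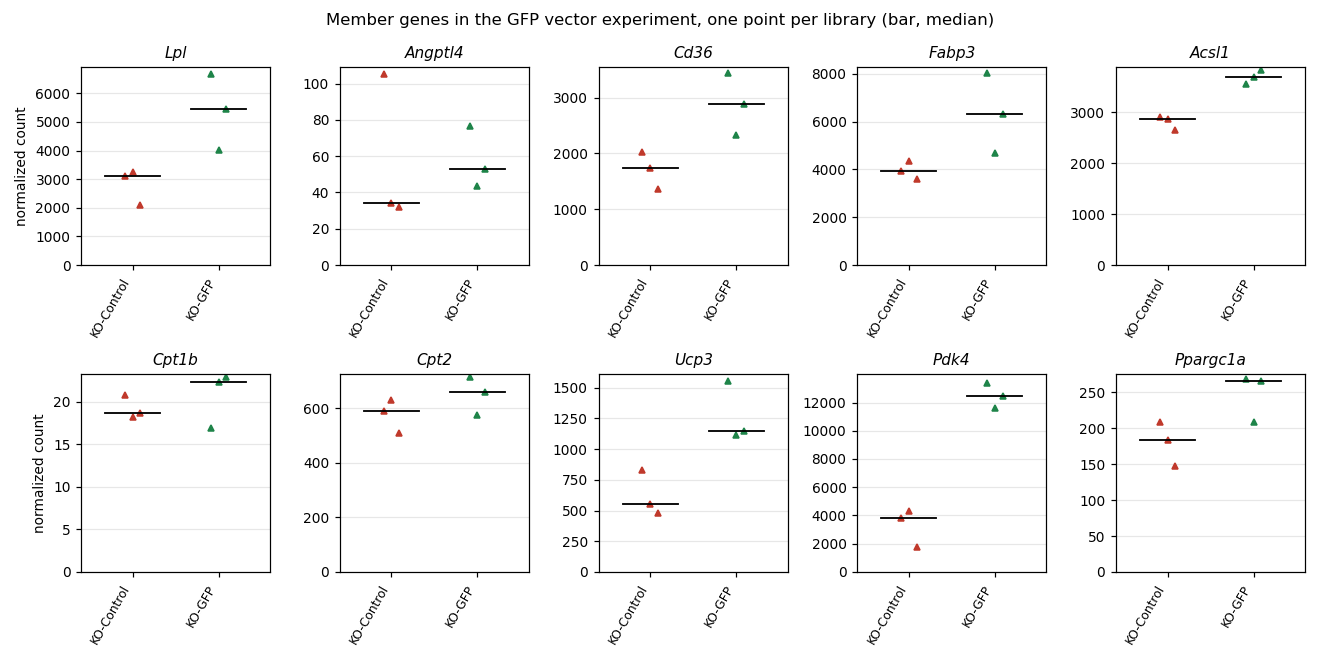
Normalized counts, on axes that start at 0, of the 10 members in the 3 KO-Control and 3 KO-GFP gastrocnemius libraries at 10 weeks, with a bar at each median. The KO-GFP libraries are all above the KO-Control libraries for *Pdk4*, *Ucp3*, *Lpl*, *Cd36*, *Fabp3*, *Acsl1*, and *Ppargc1a*.

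Beta-oxidation genes outside the members were also higher in the KO-GFP libraries, 13 of 22 higher and 0 lower (median 0.46), with *Acaa2*, the thiolase of the last step, at 0.88 (SE 0.11, limma adjusted *P* = 0.00172) and *Etfa*, an electron transfer subunit, at 0.64 (SE 0.08, limma adjusted *P* = 0.00144). Of 20 regulators 2 were higher and 0 lower, *Ppara*, the PPAR of fatty acid oxidation, by 1.44 (SE 0.25, limma adjusted *P* = 0.00840) and *Esrrg* by 0.95 (SE 0.20, limma adjusted *P* = 0.0240). Lipid droplet genes had 4 of 13 higher, led by *G0s2*, an inhibitor of lipolysis, at 1.51 (SE 0.18, limma adjusted *P* = 0.00102), and uptake and the pyruvate dehydrogenase switch had 1 higher each. *Txnip*, a gene of glucose uptake control, was lower at -1.23 (SE 0.13, limma adjusted *P* = 0.000410) among 11 fasting-responsive genes, where *Mt1* and *Mt2* were higher. Of the slow fiber markers 5 of 7 were also higher, and their sums were 11139 to 15683 in KO-GFP and 1273 to 7660.1 in KO-Control muscle without overlap, while fast fiber markers summed to 772760.0 to 825986 and 958905 to 1088220.0. Of the macrophage markers 4 of 6 were higher, with sums of 483 to 758 and 223 to 341. The part of fibers and macrophages in the differences of the members was not tested, since the markers separate the groups. The GFP experiment was normalized apart from the main experiment, and the *Bmal1* and GFP vectors were not compared directly.

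Outside of skeletal muscle, no member passed the adjusted test between KO+AAV and KO in heart (0 of 10 members, with 0% of all genes called), liver (0 of 9, 0%), white fat (0 of 10, 0%), or lung (0 of 10, 0.0237%) with limma. Members with an unadjusted *P* under 0.05 numbered 1, 0, 1, and 5 in that order. EdgeR also called 0 in each tissue, and DESeq2 called 0 except for 2 in lung. The share of all lung genes that DESeq2 called is not given here, so these 2 are not to be read against the 0.0237% of limma. *Ucp3* was below the filter on low values in liver, with at most 17.3 counts.

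Lung had the most members with an unadjusted *P* under 0.05. *Fabp3* had 4365, 2613, 5506, and 6967 counts in KO+AAV and 444, 978, 1887, and 1924 in KO lung, and each KO+AAV library was higher. The difference was 2.03 (SE 0.47, limma adjusted *P* = 0.145). *Ppargc1a* had 519.8, 567.6, 531, and 714 against 316, 419, 337, and 442 counts, again without overlap, and a difference of 0.62 (SE 0.15, limma adjusted *P* = 0.146). These were the 2 members with *P* under 0.01, a threshold that 3.06% of all genes passed as higher, and groups without overlap in this direction were found for 3.91%. DESeq2 called both, *Ppargc1a* at an adjusted *P* of 0.00720 and *Fabp3* at 0.0184. All cardiomyocyte markers (6 of 6) were detected in lung, and their summed counts separated the groups in the same direction, 62184 to 196941 in KO+AAV and 3885 to 36043 in KO lung, with *Fabp3* at 2967 RPKM in KO heart and 36.6 in KO lung. Adipocyte markers summed to 1622 to 21774 and 304 to 15154. The part of heart or fat tissue in these differences was not tested. *Lpl* at 0.47 (SE 0.18, limma adjusted *P* = 0.355), *Acsl1* at 0.72 (SE 0.30, limma adjusted *P* = 0.389), and *Cpt1b* at 0.79 (SE 0.35, limma adjusted *P* = 0.416) were the other members with an unadjusted *P* under 0.05, and their groups overlapped.

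In white fat *Pdk4* had 2636, 7264, 12888, and 8442 counts in KO+AAV and 2747, 383, 2032, and 2769 in KO libraries. KO+AAV replicate 1 lay within the KO range, and the difference of 2.11 (SE 0.73, limma adjusted *P* = 0.907) did not pass. KO replicate 2, which held epididymis markers and had the lowest sum of adipocyte markers (179296, against 674190.0 or more in the other 7 libraries), had the lowest counts of *Pdk4*, *Lpl*, *Cd36*, *Angptl4*, and *Ucp3*. Without it and KO+AAV replicate 3, which held brown fat markers, the difference in *Pdk4* was 1.13 (adjusted *P* = 1.0) and that in *Angptl4* went from 1.6 to 0.57 (adjusted *P* = 1.0). *Angptl4* and *Cd36* had their highest levels of the tissues in white fat, at 156 ± 69.4 and 1137 ± 24.3 RPKM in KO+AAV (SD, n = 4).

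Heart had the highest levels of *Fabp3*, at 3552 ± 589 RPKM in KO+AAV and 2967 ± 1271 in KO libraries. *Angptl4* had 155, 1316, 140.2, and 215 counts in KO+AAV and 1819, 946, 428, and 978 in KO heart, 3 of 4 KO+AAV libraries below all KO libraries, and the difference of -1.71 (SE 0.75, limma adjusted *P* = 0.862) did not pass. Leaving out the heart libraries rich in hepatocyte or atrial markers (KO replicates 2 and 4 and KO+AAV replicate 1) gave -1.37 (adjusted *P* = 0.999). *Pdk4* had 15598, 54816, 18351, and 20698 and 50196, 5183, 18891, and 18321 counts, with 1 library well above the other 3 in each group. KO replicate 2, at 5183, was the library with 1368280 summed counts of hepatocyte markers, where liver libraries had 1669710 or more. The KO heart means of *Pdk4* and *Fabp3* include it, and its part in them was not tested. In liver *Acsl1* was the most abundant member, at 87.6 ± 14.6 RPKM in KO+AAV and 90.4 ± 20.4 in KO libraries, and KO replicate 1 had the highest counts of *Pdk4*, *Angptl4*, and *Cd36* (3648, 5669, and 5068). The largest liver differences in size were *Pdk4* at -0.59 (95% CI -1.45 to 0.26, limma adjusted *P* = 0.997) and *Fabp3* at -0.53 (95% CI -2.66 to 1.6, limma adjusted *P* = 0.997).

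**Figure D5:**
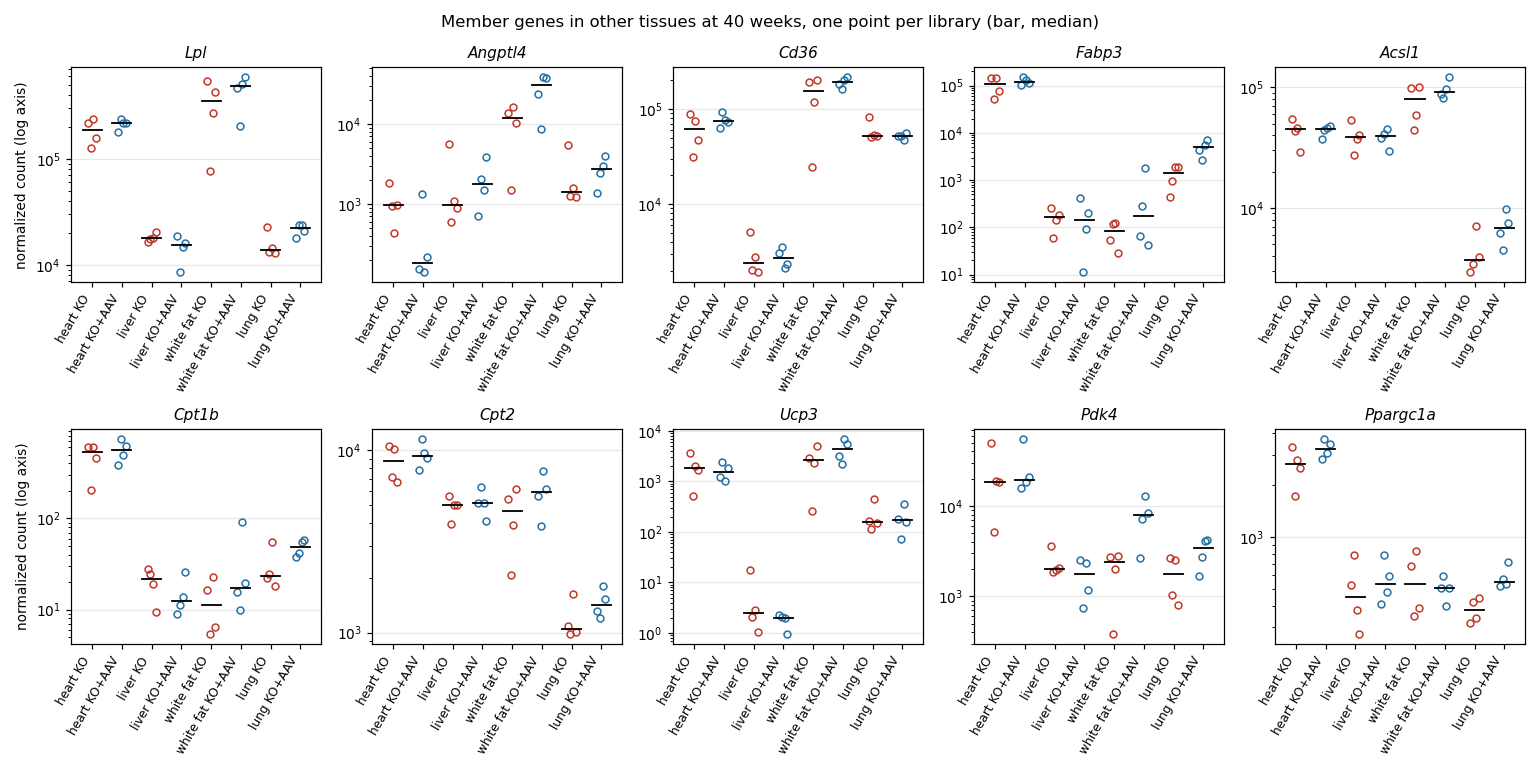
Normalized counts on a log axis of the 10 members in heart, liver, white fat, and lung at 40 weeks in KO and KO+AAV, 4 libraries a group, with a bar at each median. The groups overlap in each tissue and member except *Fabp3* and *Ppargc1a* in lung.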

How the data were processed

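RNA-Seq of 72 mouse libraries was analysed. The authors aligned reads to GRCm38 (mm10) with HISAT2, counted them with HTSeq, and deposited a signal per gene, namely read counts divided by DESeq2 size factors. Size factors recovered from the smallest steps of the values gave whole reads for 100% of values (tolerance 0.05), and edgeR and DESeq2 were run on these as alternatives. Gene names matched 55141 of 55401 identifiers (99.53%). Annotation release and strand setting are not given in the sources used here. The main test was limma 3.58.1 (R 4.3.3) on log2(normalized count + 1) with the sequencing site as a covariate in gastrocnemius, over genes with a mean above 5, the GFP experiment and each other tissue being fitted alone, with Benjamini-Hochberg adjusted *P* over all genes tested. Fold changes are on that log2 scale, which understates changes of low genes. Alternatives were edgeR 4.0.16, DESeq2 1.42.0, other pseudocounts and filters, library quality weights, a replicate block, single sites, and leaving out libraries, of which the sets rich in other markers were chosen after seeing the data. The tests were tried on simulated data. Members and gene lists were chosen with earlier results of these data known. Named list genes were the called genes with the smallest *P*, at most 3 a list and comparison. Promoters came from RefSeq (GRCm38.p6).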

Additional observations from a re-analysis of the deposited data

Results flagged for a closer look

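Single libraries stood apart in 21 of 140 pairs of a member and a group of 4 to 7 libraries (15%). Chance gives about 1 in 20 for independent, normally distributed values. These counts are skewed and the members vary together, and their own chance rate was not measured. Each library named here was separated from the rest of its group by more than Dixon's critical value, and all were high. In gastrocnemius at 10 weeks *Angptl4* was 148 normalized counts in WT replicate 7 (others 13.5 to 21.5) and *Cpt1b* 79.1 in WT replicate 4 (33.5 to 49.0). KO+AAV replicate 6 at 10 weeks was apart for 4 members, with 1559.6 counts of *Cpt2*, 13110.3 of *Fabp3*, 7589.6 of *Acsl1*, and 14019 of *Lpl*. At 40 weeks KO+AAV replicate 2 had 42283 counts of *Pdk4* (others 7480.0 to 14236) and 3330.5 of *Ucp3*, and KO replicate 1 had 1019 of *Angptl4*.

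In heart, KO+AAV replicate 2 had 54816 counts of *Pdk4* and 1316 of *Angptl4*. In liver, KO replicate 1 had 3648 counts of *Pdk4*, 17.3 of *Ucp3*, and 5669 of *Angptl4*. In white fat, KO+AAV replicate 3, which held brown fat markers, had 91.5 counts of *Cpt1b* and 1764 of *Fabp3*. In lung, KO replicate 1 had 5381 counts of *Angptl4*, 81650.2 of *Cd36*, and 22966 of *Lpl*, and KO replicate 3, which held brown fat markers, had 444 of *Ucp3* and 1623 of *Cpt2*. What sets these libraries apart was not tested.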

How the results depend on the processing

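Of 3848 single-gene values recomputed under the alternatives, 3671 stayed called in the same direction, or stayed uncalled and moved by no more than the standard error of the fitted difference. Of the rest, 106 stayed uncalled and moved by more, 31 became called, and 40 were no longer called. No called difference changed sign. Among the 3444 values that were uncalled in both settings, 162 changed sign. In KO versus WT at 10 weeks 7 members were called with library quality weights and 0 among the Novogene libraries alone, and in KO+AAV versus WT at 10 weeks 2 were called with library quality weights. Without the 4 libraries rich in slow fiber markers 1 member was called between ages in KO+AAV. In lung 2 were called by DESeq2 and 1 with library quality weights. The shares of all genes called under these alternatives are not given here, so these counts are not to be read against the shares of the main test. Leaving out 1 library at a time gave 3 to 5 called members in KO versus WT at 10 weeks, 6 to 7 at 40 weeks, 0 to 1 in KO+AAV versus WT at 10 weeks, 2 to 4 at 40 weeks, 0 to 1 between ages in KO+AAV, and 2 to 5 in the GFP experiment (3 without KO-GFP replicate 1 or KO-Control replicate 3, and 2 without KO-GFP replicate 3). With a replicate block the counts were 5 in KO versus WT and 4 in KO+AAV versus WT at 40 weeks, 5 in KO versus WT at 10 weeks, 6 in the GFP experiment, and 0 elsewhere. The block ended the call of *Ppargc1a* in KO versus WT at 40 weeks (-0.67, limma adjusted *P* = 0.0547) and added *Cd36* at 10 weeks (0.67, 0.0473) and *Pdk4* in KO+AAV versus WT at 40 weeks (1.38, 0.0402). No comparison had every pair of like replicate number correlated above 0.1. In KO versus WT at 40 weeks the *r* was -0.11 to 0.086, and in white fat it was -0.38 to 0.58 (median 0.44, 4 pairs). These values do not settle whether the replicate numbers pair the samples. With 3 to 7 libraries a group, low genes such as *Angptl4* and *Cpt1b* had wide intervals. Causes of these changes were not tested.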
